A study of Bos taurus with 8 samples.

Results

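The genes described here carry a symbol made of ZNF and a number in the annotation of the array's platform. They were chosen by that symbol alone, whatever their signal. The rule found 352 probes for 257 genes, of 43794 probes and 15225 gene symbols on the array. By RefSeq's gene names, 244 of the 257 symbols were current and 13 had been renamed, 10 of them to a symbol outside the ZNF series. ZNF828 is now CHAMP1, ZNF187 is ZSCAN26 and ZNF259 is ZPR1, so the symbol gathers proteins of more than one kind.

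Most ZNF genes encode proteins with a row of C2H2 zinc fingers, each finger a short fold held by a zinc ion that reads a few bases of DNA. Many also carry a KRAB domain, which recruits TRIM28 and, through it, the histone methyltransferase SETDB1, heterochromatin proteins and DNA methylation. Proteins of this kind silence retroelements and, in mouse and human, keep imprinted regions methylated while the rest of the genome is reprogrammed after fertilization. Others bind RNA, activate promoters or act at the kinetochore. The bovine 2-cell embryo still lives largely on messenger RNA stored in the oocyte, since the main activation of its genome comes some cleavages later.

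The samples were bovine 2-cell embryos made in vitro from slaughterhouse Holstein oocytes and pooled, cryopreserved semen. One group of embryos, which the series calls fast, was taken 29.5 hours after in vitro fertilization (hours post-fertilization, hpf), and the other, called slow, at 46 hpf. No other treatment or genotype separated the groups, and the sources used here do not give the number of embryos per sample. Each of 8 arrays of 2 colours carried amplified RNA of both groups. The arrays were numbered as 4 replicates, with 29.5 hpf in Cy5 on 4 arrays and 46 hpf in Cy5 on the other 4. Cleavage speed and age at collection differ together between the groups and cannot be told apart. Every ratio is given on the log2 scale with 29.5 hpf as the numerator, so that values above 0 are higher at 29.5 hpf.

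The replicate numbers did not pair all arrays as labelled. Over the tested ZNF probes the dye-swapped arrays numbered 1 correlated at 0.03 and those numbered 2 at 0.13, against 0.64 for number 3 and 0.85 for number 4. Across the orientations, array 1 with 29.5 hpf in Cy5 had an r of 0.76 with array 2 of the swapped dyes, and the opposite cross an r of 0.58. Over all tested probes the labelled pairs 1 and 2 correlated at 0.04 and 0.05 and the crossed ones at 0.67 and 0.52. These correlations run across probes, which are not independent replicates. The labelled numbers were kept for the values below, and each call is given again with numbers 1 and 2 exchanged. In the main test a probe is named as called when it passed with the labelled numbers. If the crossed arrays share RNA, labelled values 1 and 2 each average the same 2 sources. These values would then not be independent, and the SD and p-values given below for n = 4 could be too small. Whether the crossed arrays share RNA was not tested.

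**Figure D1:**
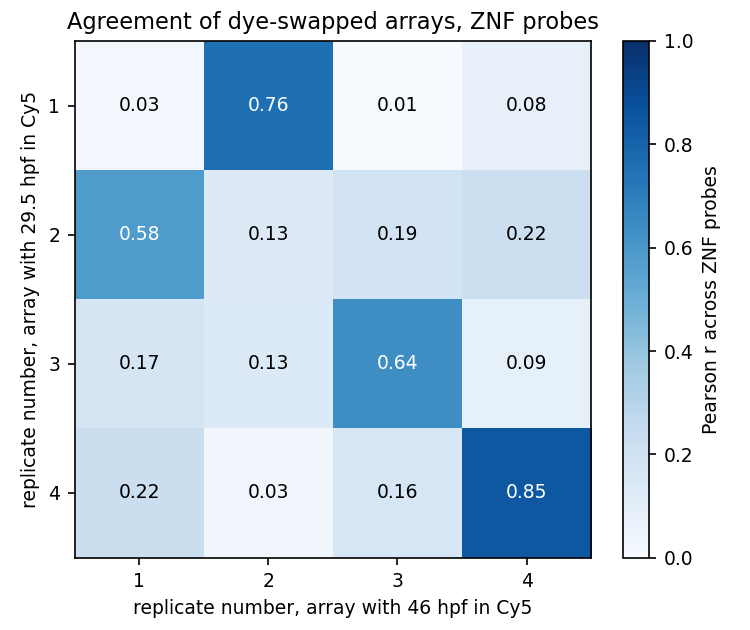
Pearson r across tested ZNF probes between each array with 29.5 hpf in Cy5 (vertical axis, by replicate number) and each array with 46 hpf in Cy5 (horizontal axis). The darkest cells for numbers 1 and 2 lie off the diagonal, at 0.76 and 0.58, while those for numbers 3 and 4 lie on it, at 0.64 and 0.85.

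Marker genes of the oocyte and early embryo, of cumulus cells and of sperm were compared between the groups. A comparison between the groups does not test the labelled cell stage. Of 13 oocyte and early embryo marker genes tested, none passed the test, and the median of their log2 ratios was -0.07. At an unadjusted limma p under 0.05 there were 3 of the 13, against 16.4% of all tested probes. They were PADI6 at -0.52, BMP15 at -0.51 and FIGLA at -0.36, all lower at 29.5 hpf. Of 15 cumulus and granulosa markers, 12 were tested and 1 passed: SERPINE2, a protease inhibitor made by cumulus cells, was lower at 29.5 hpf, at a log2 ratio of -1.28 ± 0.10 (SD, n = 4) and a limma adjusted p of 0.0227. That call was lost with numbers 1 and 2 exchanged, at an adjusted p of 0.064, with SERPINE2 below 0 on 8 of 8 arrays. The summed normalised signal of the 12 cumulus markers was 10859 to 13392 at 29.5 hpf and 15205 to 22775 at 46 hpf, lower at 29.5 hpf on 8 of 8 arrays. Without SERPINE2 the sums were 7977 to 9961 and 8533 to 11446, and 29.5 hpf was higher on 1 array. AMH, TNFAIP6 and LUM were not above background, and of 11 sperm markers 3 were tested and none passed, PRM1 and TNP1 being among those not above background. The part of cumulus RNA in the ZNF values below was not tested.

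Messenger RNA of a large share of the ZNF genes was measurable in these embryos. A probe was tested when its signal exceeded that of the negative control spots (their mean plus 2 SD) on at least 4 of 8 arrays in 1 group, and 281 ZNF probes (79.8%) of 217 genes met that rule. The share was 79.7% of all probes with a gene symbol, 81.6% of probes of other C2H2 families and 75.3% of all probes. Among the 281, 167 were above background on all 8 arrays in both groups, 248 on 4 or more arrays in both, 14 on 4 or more in the 29.5 hpf channels only and 19 in the 46 hpf channels only. No probe was tested for 40 ZNF genes. They included ZNF423 and ZNF521, large factors of neural and blood cell differentiation, and ZNF296, a partner of the NuRD complex. ZNF366, ZNF555 and ZNF684 were above background on 0 arrays, which for an array says only that no signal was detectable.

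Like the array as a whole, the ZNF genes showed few and small differences between the 29.5 hpf and 46 hpf embryos. RNA of whole embryos was amplified before labelling, so less of a transcript per cell cannot be told apart from a change in its share of the RNA. After adjustment over all 32989 tested probes, 3 ZNF probes were higher at 29.5 hpf and 2 lower, 1.78% of the 281. Over all tested probes 206 were higher (0.624%) and 175 lower (0.53%), 1.15% in either direction. At an unadjusted p under 0.05 there were 50 ZNF probes (17.8%), 19 higher and 31 lower, against 5404 of all tested probes (16.4%; 7.55% higher and 8.83% lower), 18.4% of probes with a gene symbol and 18.3% of probes of other C2H2 families. The 5 probes belong to ZNF568, ZNF639 and ZNF326, which were higher at 29.5 hpf, and to ZNF828, which was lower on both of its probes. With replicate numbers 1 and 2 exchanged no ZNF probe passed, the lowest adjusted p among them being 0.102, and 4 probes of the whole array passed (0.0121%). The authors' deposited log2 ratios, tested the same way, gave no ZNF call, beside 0.115% of all tested probes higher and 0.0394% lower. Leaving out any 1 of the 4 replicates, scaling between arrays or centring by the median in place of loess left 0 probes of the array past the threshold, ZNF probes included, with 31 to 72 ZNF probes at an unadjusted p under 0.05 in limma.

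As a group the ZNF probes lay slightly below 0. Of the 281 probes, 167 (59.4%) had a log2 ratio below 0, against 51.7% of all tested probes and 53.4% of those with a gene symbol. Their median was -0.04, with quartiles of -0.16 and 0.08, a lowest value of -0.93 and a highest of 1.06; the median of all tested probes was -0.01. By array the ZNF median ran from -0.07 to 0.003, below 0 on 7 of 8 arrays. The mean of the 4 replicate medians was -0.016 ± 0.013 (SD, n = 4) for ZNF probes and -0.004 ± 0.002 for all tested probes, so the ZNF shift was of the size of the spread between replicates. Probes of 57 other genes of C2H2 families (symbols starting with ZFP, ZSCAN, ZKSCAN or ZBTB) had a median of -0.06, with 63.4% of 71 tested probes below 0. Among those 71, ZBTB9 was higher, at 0.74 ± 0.24 (SD, n = 4) and a limma adjusted p of 0.0489, and ZBTB43 was lower, at -0.48 ± 0.09 and 0.0449, 2.82% in all; both were named after their values were seen, and neither passed with numbers 1 and 2 exchanged (0.117 and 0.252). No test of a difference between these families was made.

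**Figure D2:**
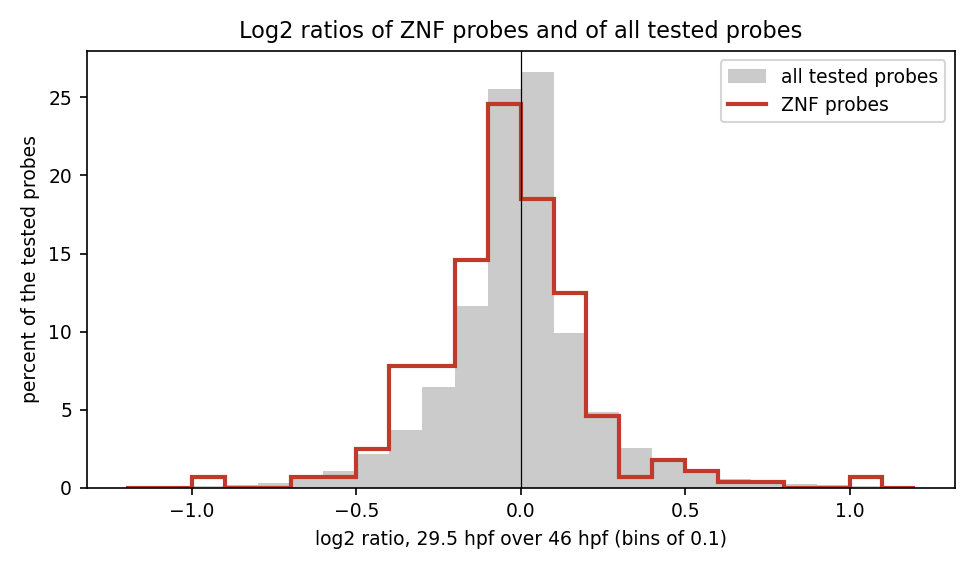
Percent of tested probes (vertical axis) in bins of 0.1 of the log2 ratio of 29.5 hpf over 46 hpf (horizontal axis), for 281 ZNF probes (red line) and all 32989 tested probes (grey). The ZNF line is above the grey bars between -0.4 and -0.1 and below them between 0 and 0.1, and both are centred near 0.

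Differences of size were rare and lay on both sides of 0. A log2 ratio over 0.5 in size was reached by 13 ZNF probes (4.63%, against 4.93% of all tested probes), 7 higher and 6 lower, and over 1 in size by 2 (0.712%, against 0.406%). Between -0.25 and 0.25 lay 76.9% of ZNF probes and 80.2% of all tested probes. The ratio had 1 sign on all 8 arrays for 22 ZNF probes (7.83%, against 7.02%), 14 above 0 (4.98%, against 3.37%) and 8 below (2.85%, against 3.66%). The median SD between replicates was 0.23 for ZNF probes, 0.25 for other C2H2 families, 0.20 for all probes with a gene symbol and 0.18 for all tested probes.

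Among the proteins that silence DNA, ZNF568 stood highest of the called genes. ZNF568 is a KRAB zinc finger gene whose mouse counterpart Zfp568 is needed for gastrulation and represses a placental promoter of Igf2. Its brighter probe read 0.30, 0.95, 0.81 and 1.12 on the arrays with 29.5 hpf in Cy5, replicates 1 to 4, and 1.32, 0.12, 0.73 and 1.00 with the dyes exchanged. All 8 arrays were above 0, with the lowest values on the array numbered 1 in the first dye orientation and the array numbered 2 in the other. The mean was 0.79 ± 0.21 (SD, n = 4), 1.73-fold, and its limma adjusted p was 0.041, or 0.176 with numbers 1 and 2 exchanged. The second probe of ZNF568 was at -0.07 ± 0.12, with an adjusted p of 0.707, so the difference rests on 1 of 2 probes. By the number that opens the array titles (140, 141 or 142), whose meaning the labels do not give, the mean of the brighter probe was 0.85, 0.96 and 0.62.

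ZNF639, a zinc finger protein first described for its amplification in human squamous cell carcinoma, was measured by 1 tested probe. It read 0.81, 0.56, 0.70 and 0.52 with 29.5 hpf in Cy5 and 0.14, 0.31, 0.55 and 0.90 with 46 hpf in Cy5. Every array was above 0, and the lowest values were those of numbers 1 and 2 in the second orientation. The mean was 0.56 ± 0.13 (SD, n = 4), 1.48-fold, and its limma adjusted p was 0.0426, 0.109 with exchanged numbers and 0.0517 with a normexp offset of 16. Within title numbers 140, 141 and 142 the mean was 0.51, 0.61 and 0.59.

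ZNF326 encodes the zinc finger subunit of the DBIRD complex, which couples elongation by RNA polymerase II to splicing. Its probe read 0.33, 0.92, 0.63 and 0.43 with 29.5 hpf in Cy5 and 0.59, -0.02, 0.50 and 0.38 with 46 hpf in Cy5. It was above 0 on 7 of 8 arrays, the exception being the array numbered 2 in the second orientation. The mean was 0.47 ± 0.07 (SD, n = 4), 1.38-fold, and its limma adjusted p was 0.0435. With numbers 1 and 2 exchanged the SD was 0.26 and the adjusted p 0.206, so the narrow spread behind this call depends on the labelled pairing. The adjusted p was 0.0571 with a normexp offset of 16 and 0.0516 in the block fit with a dye term. Within the title numbers its mean was 0.61, 0.53 and 0.29.

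ZNF828, now CHAMP1, encodes a protein of the spindle and kinetochore that helps chromosomes attach to microtubules and binds heterochromatin proteins. One probe read -1.25, -0.64, -1.04 and -1.41 with 29.5 hpf in Cy5 and -0.35, -0.92, -1.004 and -0.84 with 46 hpf in Cy5. The other read -0.89, -0.76, -0.90 and -1.26 in the first orientation and -0.34, -1.46, -0.68 and -1.15 in the second. Both probes were below 0 on 8 of 8 arrays, and the value nearest 0 of each came from the array numbered 1 with 46 hpf in Cy5. The means were -0.93 ± 0.17 and -0.93 ± 0.28 (SD, n = 4), a 1.91-fold lower signal at 29.5 hpf on both, with limma adjusted p of 0.0335 and 0.0422. With numbers 1 and 2 exchanged the adjusted p was 0.102 and 0.107, and without the filter on dim probes that of the second probe was 0.0506. Within the title numbers 140, 141 and 142 the means were -0.75, -1.22 and -0.92 for the first probe and -0.66, -1.08 and -1.10 for the second.

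**Figure D3:**
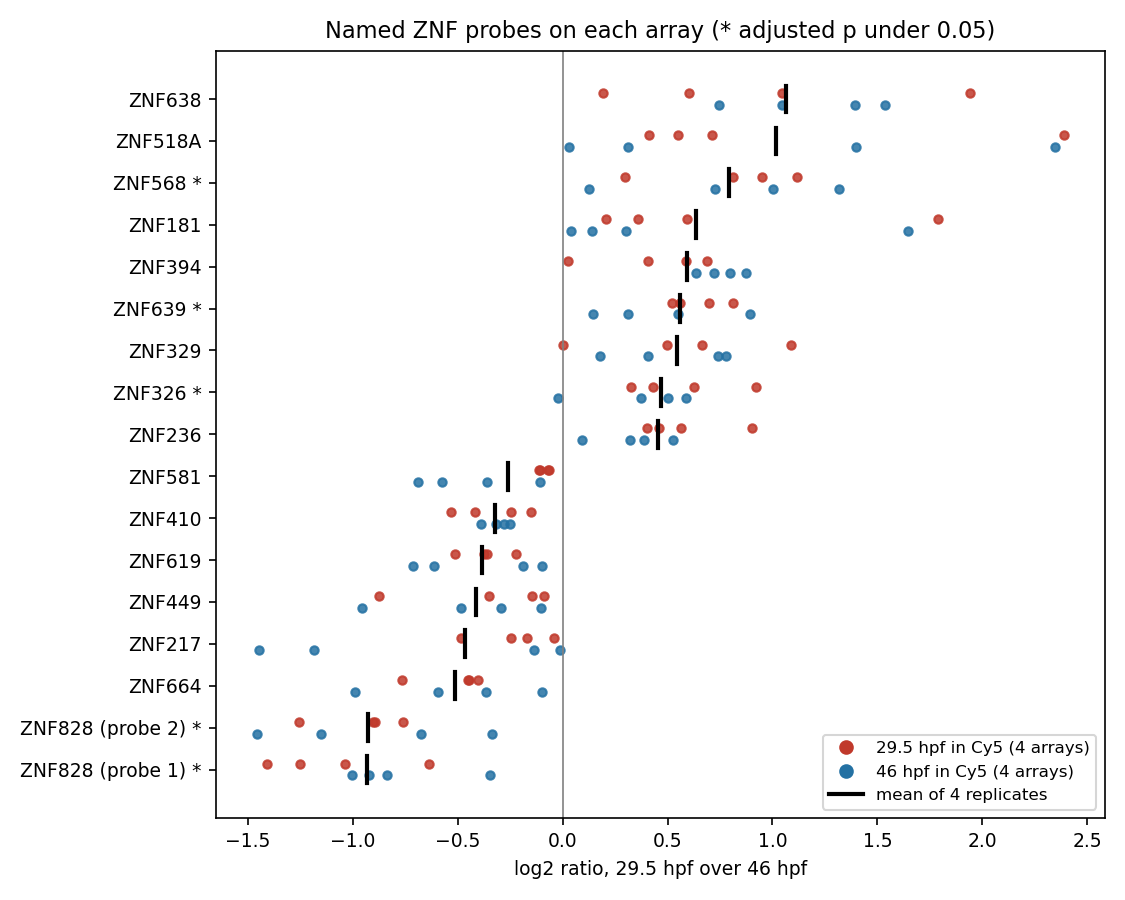
Log2 ratio of 29.5 hpf over 46 hpf (horizontal axis) of each named ZNF probe on each of 8 arrays; red points are arrays with 29.5 hpf in Cy5, blue points those with 46 hpf in Cy5, and the bar is the mean of 4 replicates. Points of ZNF638 and ZNF518A spread from near 0 to 1.94 and 2.39, while both probes of ZNF828 lie below -0.3 on every array.

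Fitting all 8 arrays with the replicate number as a random block gave more calls. With the labelled numbers the block fit called 14 ZNF probes, 8 higher and 6 lower (4.98%), beside 4.97% of all tested probes (2.49% in each direction). With exchanged numbers it called 11 probes of 10 genes, 7 higher and 4 lower, beside 3.26% of all tested probes (1.69% higher and 1.57% lower). All 5 probes named above were among those 11, and all 11 were among the 14. These fits and the test above use the same 8 arrays, so the overlap is not independent support. The others of the 11 were ZNF638, ZNF394, ZNF329 and ZNF33B, higher at 29.5 hpf, and ZNF664 and ZNF410, lower. ZNF33B was called in this fit on 1 of 2 tested probes, which were at 0.09 and 0.41. Its brighter probe, at 0.09, had a limma adjusted p of 0.756 over the 4 replicate values. The fit with exchanged numbers was added after the data were seen, and its consensus correlation within a block was 0.38, against 0.13 with the labelled numbers. The remaining genes are described by the fit over 4 replicate values, in which none of them passed.

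ZNF638 and ZNF518A had the highest ratios of all ZNF probes. ZNF638 is a nuclear protein that binds RNA and cytidine-rich DNA and, in human cells, brings the HUSH complex and SETDB1 to unintegrated retroviral DNA. Its replicate values were 0.79, 0.90, 0.82 and 1.74, a mean of 1.06 ± 0.45 (SD, n = 4), and its limma adjusted p was 0.0656. ZNF518A, a relative of ZNF518B, which binds the histone methyltransferases G9a and GLP in human cells, read 0.51, 0.22, 0.97 and 2.37, a mean of 1.02 ± 0.95 with an adjusted p of 0.249. All arrays were above 0 for both genes, and in each the value of replicate 4 was the highest. The same replicate gave 1.72 for ZNF181, whose others were 0.45, 0.25 and 0.12, a mean of 0.63 ± 0.73 with an adjusted p of 0.348. Replicate 4 also held the widest spread of replicate values over the family. It had 16 ZNF probes (5.69%) over 1 in size, against 0, 1 and 7 in replicates 1 to 3. For all tested probes the share in replicate 4 was 3.01%. Of single arrays, number 3 with 46 hpf in Cy5 held the most ZNF probes over 1 in size, 23 (8.19%). Those of number 4 held 20 and 16. The weakly correlated arrays numbered 1 held 9 and 5, and their average held 0.

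Of the 14 ZNF probes above 0 on every array, the 8 highest belong to ZNF638, ZNF518A, ZNF568, ZNF181, ZNF639, ZNF394, ZNF329 and ZNF236, and the other 6 lay between 0.07 and 0.41. ZNF394, a protein with SCAN and KRAB domains, read 0.61, 0.37, 0.78 and 0.60 in replicates 1 to 4, a mean of 0.59 ± 0.17 (SD, n = 4), and its limma adjusted p was 0.0502. ZNF329 was at 0.54 ± 0.35 with an adjusted p of 0.141, its replicate 3 being near 0 at 0.09. ZNF236 was at 0.46 ± 0.12 with 0.0601, and its other tested probes were at 0.13 and 0.08. None of these 3 genes passed the test.

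On the lower side, the ZNF genes below 0 on every array included a regulator of a chromatin remodeller. ZNF410 activates CHD4, the ATPase of the NuRD complex, in mouse and human erythroid cells. It read -0.28, -0.41, -0.27 and -0.33 in replicates 1 to 4, a mean of -0.32 ± 0.06 (SD, n = 4), and its limma adjusted p was 0.0787. CHD4 itself was at -0.11 ± 0.11 with an adjusted p of 0.542. ZNF664 was at -0.51 ± 0.26 with 0.101, ZNF449 at -0.41 ± 0.34 with 0.227 and ZNF619 at -0.39 ± 0.17 with 0.104. ZNF217, which works with the CoREST and CtBP corepressors and is amplified in human breast cancer, read -0.09, -0.09, -0.85 and -0.83, a mean of -0.47 ± 0.43 with 0.266. ZNF581 was above background on 8 of 8 arrays at 46 hpf and on 0 at 29.5 hpf, and it was tested only through its signal at 46 hpf. Its mean log2 normalised signal was 7.54 at 46 hpf and 7.28 at 29.5 hpf, where it was not well above background, a log2 ratio of -0.26 ± 0.12 that did not pass, with an adjusted p of 0.156. The dim signal was no lower than the detection floor of normalised values, so the bound of at least 1.20-fold is the measured fold and no independent limit.

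Grouped by role, 1 of the ZNF genes in 5 lists passed the test, and the called ZNF568, ZNF639 and ZNF828 were in no list. Each gene stood by its brightest tested probe, and over all tested probes the median was -0.01, 1.15% were called and 16.4% had an unadjusted p under 0.05. Of 7 tested genes that act on RNA or translation, ZNF326 was higher and 6 did not pass, 3 lay above 0 and 4 below, and the median was -0.04; 2 had an unadjusted p under 0.05. ZNF346, which binds double-stranded RNA, was at -0.25 ± 0.30 (SD, n = 4), and its limma adjusted p was 0.427.

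Of 18 tested ZNF genes of chromatin complexes none passed, 9 lay above 0 and 9 below, and the median was 0.01; 6 had an unadjusted p under 0.05. ZNF592, which joins ZNF687 and ZMYND8 in a complex on chromatin, read 0.22, 0.28, 0.32 and 0.24 in replicates 1 to 4, a mean of 0.27 ± 0.05 (SD, n = 4), and its limma adjusted p was 0.105. Its arrays did not show 1 sign, with values from -0.30 to 0.74, and with numbers 1 and 2 exchanged its SD was 0.20. ZNF541, which in mouse belongs to a deacetylase complex of male germ cells, was at -0.26 ± 0.16 with 0.199.

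Of 19 tested ZNF transcription factors with known targets none passed, 7 lay above 0 and 12 below, and the median was -0.04; 3 had an unadjusted p under 0.05. ZNF143, an activator of small nuclear RNA genes and of many promoters, was at -0.45 ± 0.28 (SD, n = 4), and its limma adjusted p was 0.141, its replicate 2 being nearest 0 at -0.08. Its mean was -0.16 with 29.5 hpf in Cy5 and -0.74 with 46 hpf in Cy5.

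Of 11 tested ZNF genes in the list of imprints and retroelements none passed, 3 lay above 0 and 8 below, and the median was -0.03. An unadjusted p under 0.05 was found for 1 of them. ZNF568, called higher, was not in that list. ZNF445, which in mouse and human guards imprinted methylation, was at -0.03 ± 0.30 (SD, n = 4), and its limma adjusted p was 0.934, and ZNF274, which brings SETDB1 to repeated genes, was at -0.02 ± 0.21 with 0.948. Neither was chosen by the rule for named genes, and both are given for their role. ZNF398, linked in human to the maintenance of pluripotency, was at -0.47 ± 0.32 with 0.169. ZNF304 and ZNF10, both KRAB repressors, were at 0.26 ± 0.26 with 0.332 and at -0.20 ± 0.22 with 0.416. Of 5 tested genes in the list of mitosis and genome maintenance none passed, 1 lay above 0 and 4 below, and the median was -0.14. None had an unadjusted p under 0.05. ZNF828, called lower, was not in that list. ZNF207, which loads the spindle checkpoint protein BUB3 onto kinetochores, was at 0.10 ± 0.06 with 0.499. ZNF830, whose mouse counterpart is needed in the preimplantation embryo, was at -0.14 ± 0.20 with 0.558, and ZNF350, a partner of BRCA1, was at -0.31 ± 0.74 with 0.669.

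**Figure D4:**
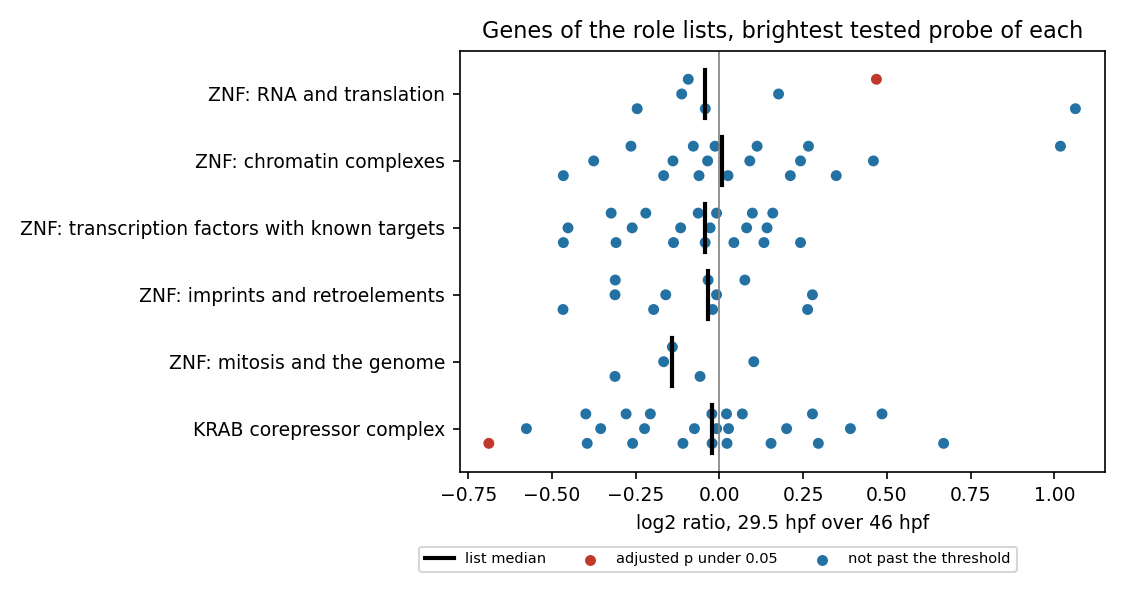
Log2 ratio of 29.5 hpf over 46 hpf (horizontal axis) of each gene's brightest tested probe in 5 lists of ZNF genes by role and in the list of KRAB corepressor genes; red points passed a limma adjusted p of 0.05 and the bar is the list's median. The medians lie between -0.14 and 0.01, and 1 red point, ZNF326, is a ZNF gene. The called ZNF568, ZNF639 and ZNF828 are in none of the lists.

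The partners through which KRAB zinc finger proteins silence DNA were measured on the same arrays. All 25 corepressor genes on the array were tested, each standing by its brightest tested probe. Of these 1 was lower at 29.5 hpf, none was higher, 11 lay above 0 and 14 below, and the median was -0.02. At an unadjusted p under 0.05 there were 9 of the 25, against 16.4% of all tested probes, of which 1.15% were called. Of the 9, MORC3, SETDB1, DNMT1 and ATRX lay above 0 and MPHOSPH8, CBX1, UHRF1, DNMT3A and TRIM33 below. MORC3 was above 0 on 8 arrays, at 0.67 ± 0.59 (SD, n = 4), and its limma adjusted p was 0.231. TRIM28, the scaffold that KRAB domains bind, was at -0.02 ± 0.30 (SD, n = 4), and its limma adjusted p was 0.958, and SETDB1 was at 0.49 ± 0.49 with 0.299. MPHOSPH8, the HUSH subunit that reads methylated histone H3, read -1.24, -0.28, -0.68 and -0.64 with 29.5 hpf in Cy5 and 0.17, -1.41, -0.64 and -0.77 with 46 hpf in Cy5. It was below 0 on 7 of 8 arrays, the exception being the array numbered 1 in the second orientation. Its mean was -0.69 ± 0.13, with an adjusted p of 0.0353, and 0.276 with numbers 1 and 2 exchanged, where the SD was 0.52, and 0.0526 under the replicate block. CBX1, a heterochromatin protein, was below 0 on 8 arrays at a mean of -0.58 ± 0.38 with 0.144, and passed under the replicate block with 0.0366, but not on exchanged numbers, with 0.0565. UHRF1, which brings DNMT1 to newly copied DNA, was at -0.40 ± 0.19 with 0.108, and TRIM33, a relative of TRIM28, was at -0.35 ± 0.27 with 0.218. Probes other than the brightest differed for some genes. Another probe of DNMT3A was at -0.47 ± 0.20 with 0.0842, below 0 on 8 arrays. The probes of DNMT1 were at 0.39 and -0.04, those of CBX5 at 0.02 and -0.36, and those of ATRX between -0.06 and 0.37.

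Several ZNF genes had more than one probe, which gave a second reading of the same gene. Of the 217 tested genes, 172 had 1 tested probe and 45 had 2 or more. All probes of a gene shared 1 sign in 23 of the 45 and lay on both sides of 0 in 22. The 2 brightest probes had the same sign in 29 genes (64.4%, against 60.6% of 3057 such genes on the array), and their ratios differed by a median of 0.18 (0.15 over all such genes). Across genes the ratios of the 2 brightest probes correlated at 0.36 for ZNF and 0.34 for all genes, points that share the same 8 arrays. ZNF828 was the gene with both probes called, and ZNF568 had 1 called probe of 2.

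The probes of 4 further genes differed most. ZNF187, now ZSCAN26, had tested probes at 0.17, 0.20, -0.33 and -0.34, and 1 of the 4, at -0.33, lacked a value on 1 array. ZNF281, a repressor that limits pluripotency genes in mouse stem cells, had probes at -0.14 and -0.63. ZNF3 had probes at 0.04, -0.01 and -0.55. ZNF75A had probes at -0.31, -0.32 and 0.30, and these were above background on 5, 1 and 5 arrays at 29.5 hpf and on 5, 5 and 1 arrays at 46 hpf. None of these probes passed the test, and the sources used here do not say which transcripts they match. Where ZNF genes have near-identical copies, a probe may also read a relative.

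**Figure D5:**
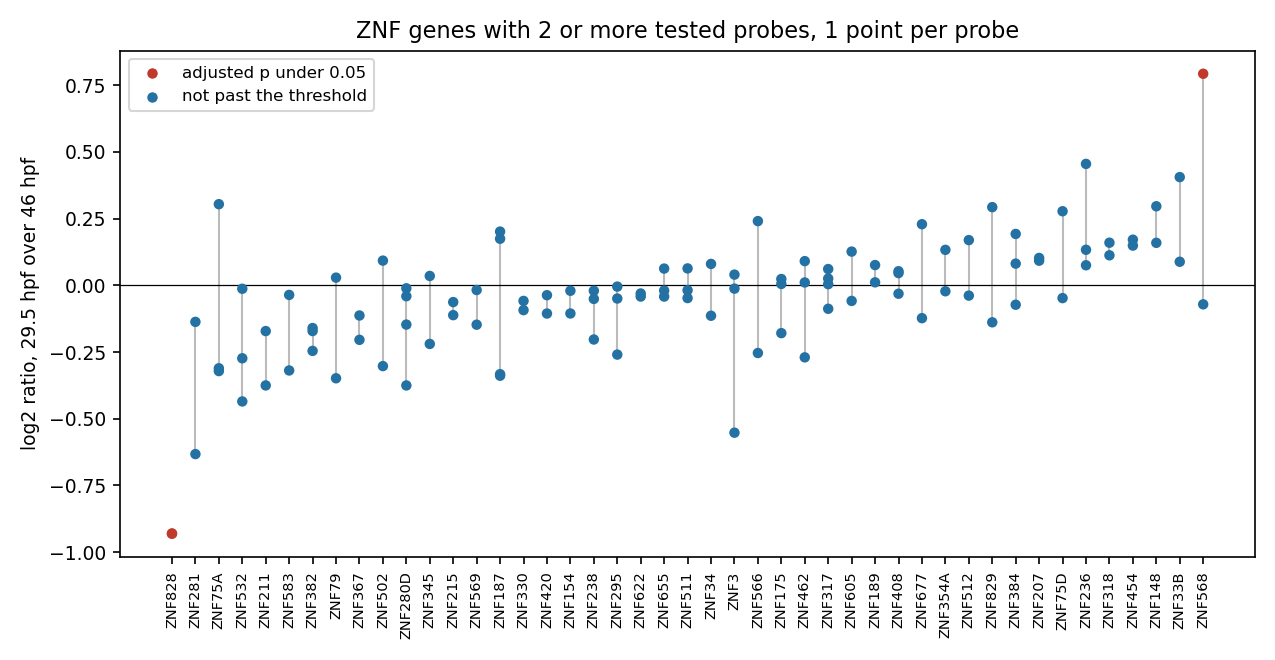
Log2 ratio of 29.5 hpf over 46 hpf (vertical axis) of every tested probe of the 45 ZNF genes with 2 or more tested probes, 1 column per gene; red points passed a limma adjusted p of 0.05. The points of ZNF828 coincide at -0.93, and those of ZNF568 lie at 0.79 and -0.07.

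ZNF genes often lie in clusters that arose by local duplication. In the RefSeq order of assembly ARS-UCD2.0 all 217 tested genes were placed. Runs of these tested genes were formed with at most 2 other protein-coding genes between neighbours. ZNF genes that were not tested and other zinc finger genes counted among the other genes. There were 5 runs of 4 or more tested genes, holding 33 genes with a median of -0.02, while 122 genes without a near tested ZNF neighbour had a median of -0.04. Some of the 122 may still lie in zinc finger clusters. The longest run, from ZNF565 to ZNF345, held 12 genes, 6 above 0 and 6 below, with a median of 0.01, a lowest of -0.41 and a highest of 0.79. That highest value was ZNF568, whose run members ZNF566 and ZNF829 were at 0.24 ± 0.35 (SD, n = 4) and 0.29 ± 0.25, with limma adjusted p of 0.497 and 0.272; their other tested probes were at -0.25 and -0.14. In the run from ZNF605 to ZNF268 all 4 genes lay below 0 by their brightest probes, between -0.20 and -0.04. The other tested probe of ZNF605 was at 0.13. In the run from ZNF283 to ZNF180 5 of 7 genes lay below 0, with a median of -0.10. Of all placed genes 59% lay below 0. None of these genes but ZNF568 passed the test.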

How the data were processed

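RNA of both groups was measured on each of 8 arrays, whose labels give 4 numbered replicates. The scanner files deposited by the authors hold intensity on a linear scale. Per the file headers these are spot means and local background medians at 532 nm (Cy3) and 635 nm (Cy5), without normalization. The authors' deposited table of log2 ratios, made by steps that the sources used here do not name, was an alternative only. Its columns ran as 29.5 hpf over 46 hpf, with slopes of 1.08 to 1.50 against the scanner ratios and medians of -0.015 to 0.012, and its scale and centring stay unknown. Per the labels' protocols RNA was amplified with T7 polymerase before chemical labelling.

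Background was corrected by normexp with offset 50, and ratios were normalized within arrays by loess with the 1418 control spots and the 28 to 186 ignored spots per array at weight 0 (limma 3.58.1, R 4.3.3). Signs were turned to 29.5 hpf over 46 hpf, dye-swapped arrays of 1 number were averaged, and 4 values per probe were tested against 0 by limma's moderated test (lmFit, eBayes; two-sided). P-values were adjusted by Benjamini-Hochberg over 32989 probes, and the threshold was 0.05. A tested probe exceeded the 153 negative control spots (mean plus 2 SD) on 4 of 8 arrays in 1 group and had 3 replicate values. Median raw signal per array was 152 to 344 in Cy5 and 128.5 to 196 in Cy3, and the number of arrays limits the precision.

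The series calls the replicates biological; p-values measure the spread between the labelled replicates. Deviations from the mean array correlated at -0.28 and -0.19 within numbers 1 and 2 and at 0.29 and 0.50 within 3 and 4, and at 0.58 and 0.32 in the crossed pairs, so the numbers do not pair all arrays. Members follow the symbol rule. The platform's annotation names 1 gene for 21781 probes and none for 22013. RefSeq's table (ARS-UCD2.0) gave the current symbols. No coordinates are printed; RefSeq's gene order served only to find neighbouring genes. Genes named were every called ZNF gene, the 8 highest and 8 lowest with 1 sign on 8 arrays, the 5 whose probes differed most, and the smallest p of each list (3 in the ZNF lists, 4 in the corepressor list). In the lists the p was that of each gene's brightest tested probe. Members, lists and settings were chosen with earlier results of these data known. The test was run on simulated data first. Alternatives covered background correction, normalization, filter, the authors' values, pairing, blocks, dye, variance model and left-out replicates.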

Additional observations from a re-analysis of the deposited data

Results flagged for a closer look

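For the probes named above, 47 groups of 4 replicate values were examined. In 6 of them a value lay far from the others by Dixon's ratio of the gap to the range. The nominal chance share of this rule is about 1 in 20. Many of these probes were chosen for large or differing ratios, and the share of all tested probes flagged was not computed. In ZNF638 the ratio was 0.892, with replicate 4 at 1.74 and the others between 0.79 and 0.90. For the lower of the ZNF281 probes it was 0.838, with replicate 4 at -1.58 and the others between -0.46 and -0.24. ZNF75A gave 0.862 on 1 probe, with replicate 4 at -1.53 and the others between 0.002 and 0.25. ZNF350 gave 0.849, with replicate 4 at -1.42 and the others between -0.05 and 0.20. In ZNF830 the ratio was 0.881, with replicate 3 at -0.44 and the others between -0.06 and -0.01. One probe of ZNF3 gave 0.846, with replicate 1 at 0.22 and the others between -0.11 and -0.06. Replicate 4 was the far value in 4 of the 6, and the array pair of that number had the widest spread over ZNF probes, an SD of 0.51 against 0.23 to 0.40 in the other replicates. Over all tested probes replicate 4 was also the widest, at an SD of 0.41 against 0.21 to 0.38. Of single arrays, number 3 with 46 hpf in Cy5 was the widest over all tested probes, at an SD of 0.505.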

How the results depend on the processing

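The median of the tested ZNF probes was below 0 in every setting run, between -0.14 (median centring in place of loess) and -0.021 (without replicate 4). The authors' values gave -0.084. Exchanged numbers, the replicate block and the intensity trend leave this median at -0.036 by design. The median of all tested probes moved too, to -0.066 with median centring and -0.049 in the authors' values. The ZNF median minus that of all tested probes ran from -0.079 (median centring) to -0.016 (without replicate 4). The calls were less steady. Without 1 replicate in turn, 0 probes of the array and 0 ZNF probes passed in limma, higher or lower, with 4027 to 5245 probes, 31 to 53 of them ZNF, at an unadjusted p under 0.05; the ZNF median was -0.040 to -0.021. No probe passed with median centring (6517 probes at an unadjusted p under 0.05, 72 ZNF), scaling between arrays (5428, 53 ZNF) or numbers 1 and 2 pooled into 1 value (4308, 30 ZNF): 0 higher and 0 lower. With numbers 1 and 2 exchanged 4 probes were higher and 0 lower, with 0 ZNF (4093 and 28 at an unadjusted p under 0.05). The authors' values gave 38 higher and 13 lower (74.5% higher, against 54.1%) and an intensity trend in the variance 44 and 16 (73.3%), with 0 ZNF calls in both (48 and 45 ZNF probes at an unadjusted p under 0.05).

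More probes passed without background correction (345 higher and 271 lower; 5 and 2 ZNF) and with the strict filter (458 and 405; 6 and 2 ZNF). Offset 16 left 1 higher and 2 lower ZNF probes (160 and 126 in all), and no filter 3 and 1 (151 and 146). Fits over 8 arrays, which do not average each pair first, called more: the replicate block 820 higher and 821 lower, 8 and 6 ZNF; with a dye term 568 and 560, 6 and 4 ZNF; with array weights 743 and 853, 8 and 7 ZNF; the number opening the title as a block 1399 and 1497, 9 and 9 ZNF; and the replicate block on exchanged numbers, chosen after seeing the data, 556 and 519, 7 and 4 ZNF. MPHOSPH8 had an adjusted p of 0.0526 under the replicate block, 0.109 with the dye term and 0.0512 with array weights; CBX1 had 0.0366, 0.062 and 0.049. The cause of these changes was not tested.

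Named ZNF probes that changed sign had small ratios, and none was called. Median centring gave -0.11 for 1 probe of ZNF187, -0.042 for the first probe of ZNF3, -0.039 for ZNF592, -0.045 for ZNF304 and -0.21 for ZNF207. That probe of ZNF3 was also at -0.090 in the authors' values, at -0.014 with numbers 1 and 2 pooled, and between -0.069 and 0.21 without 1 replicate in turn, below 0 without replicates 1 and 4. Another probe of ZNF3 was at 0.0078 without background correction, at 0.075 in the authors' values, and at 0.0047, 0.014 and 0.022 without replicates 2, 3 and 4. Without replicate 4 ZNF281 was at 0.12, ZNF75A at 0.095 and ZNF350 at 0.057, while without replicate 3 they were at -0.34, -0.50 and -0.48. The 5 called ZNF probes kept their sign in every setting run. For each of them all 4 replicate values had 1 sign, so leaving out, exchanging or pooling replicates could not change it. They were also chosen as called on the same arrays, so the kept sign is no measure of steadiness. With the median of a gene's probes in place of the brightest, 6 ZNF genes changed sign and the median over genes was -0.036 in place of -0.038. Grouping the genes by KRAB box and number of fingers, and the looser box pattern, were not run, since no protein sequence was used here. With 4 values per probe, small differences in dim ZNF probes are not detectable.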
